A study of Mus musculus with 4 samples.

Results

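Transcripts of 9 extracellular antagonists of Bmp and activin signals were read by array in mouse otocysts at E10.5. The genes were Tmeff1, Tmeff2, Wfikkn1, Wfikkn2, Fst, Fstl1, Chrd, Nog and Bmper, out of 18429 genes or unnamed targets with a usable probe. All 13 of the array's 39429 gene probes that carry one of these names in the array design were taken, and each probe was read separately. Of the 13 probes, 11 were among the 23202 kept for testing, which means that in the mutant RNAs or in the control RNAs the scanner software called the probe well above background at least 3 times in 4. The genes were chosen with their ratios of mutant over control known, so those ratios are given as a description, with no p-value, and counts of calls among them stand only beside the share over all probes.

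Bmps and activins are secreted ligands of the TGF-beta family that bind pairs of serine/threonine kinase receptors on the cell surface and act through Smad proteins. Antagonists bind the ligands outside the cell and keep them from their receptors: Noggin and Chordin bind Bmps, follistatin binds activins, and the Wfikkn proteins bind myostatin and Gdf11. In the developing inner ear, Bmp signals take part in forming the semicircular canals and the sensory patches. The name of the group holds only in part for Tmeff1 and Tmeff2, which are transmembrane proteins with follistatin-like domains outside the cell, and Fstl1 is a secreted relative of follistatin whose role as an antagonist is less settled.

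The otocyst is the epithelial vesicle from which the inner ear forms. Mutant embryos (Tbx2/3cDKO) carried Pax2-cre, a cre recombinase driven by Pax2 sequences, together with Tbx2(fl/fl) and Tbx3(fl/fl), floxed alleles of 2 T-box transcription factor genes on both copies, and controls were Tbx2(fl/?);Tbx3(fl/?), with no cre named and the second copy of each gene not stated. Both genotypes were of the NMRI strain and of the same age, both carried floxed alleles, and the otocysts were dissected mechanically. Each of 4 two-colour arrays compared 1 mutant with 1 control RNA, both female on replicates 1 and 2 and both male on replicates 3 and 4, with the mutant in red (AlexaFluor647) on replicates 1 and 3 and in green (AlexaFluor555) on replicates 2 and 4. No label says whether the RNAs came from separate animals or from pools, so the p-values cover the spread of these samples alone, and that spread may be technical.

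Between 57.35% and 62.19% of the probes were well above background in each RNA, and precision is limited by there being 4 arrays. The probe of Tbx3 had a log2 ratio of mutant over control of -3.43 ± 0.16 (SD, n = 4 arrays; limma adjusted p = 3.26e-06), while the probe of Tbx2 had 0.06 ± 0.23 (limma adjusted p = 0.656), and whether the Tbx2 probe lies in the deleted stretch is not known here. Some RNAs carried a weak signal of a gene of the other sex. Xist, the RNA of the inactive X chromosome, was well above background in the male mutant RNA of replicate 4, at log2 levels of 7.74 and 7.57 on its 2 probes against 9.36 to 9.69 in the female RNAs, and the Y-linked Eif2s3y was well above background in both female RNAs of replicate 2, at 6.82 and 7.02 against 10.4 to 11.0 in the male RNAs. The ratios of the first Tmeff2 probe, Wfikkn1 and the third Wfikkn2 probe are therefore also given without replicate 2 and without replicate 4. The same was done for the difference between sexes in Fst.

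Of 11 markers of otic epithelium all were well above background and tested, and 8 were lower in the mutant and 1 was higher, with a summed level of 89130 to 105400 in mutant RNAs against 181100 to 208200 in control RNAs. Markers of other cells were mostly higher in the mutant. All 8 tested markers of endothelium were higher (summed level 17760 to 18570 against 11270 to 12220, Erg not above background), as were all 8 erythroid markers (814100 to 888900 against 272800 to 427600), 7 of 10 markers of periotic mesenchyme (35510 to 37910 against 30960 to 32100, Tcf21 not above background), 6 of 7 macrophage markers (5179 to 7051 against 4109 to 4534, Spi1 not above background) and 6 of 8 markers of otic neuroblasts and neurons (20520 to 25470 against 14090 to 15500). Among 9 genes that dissection stress induces, 6 were higher. Of the markers of hindbrain, 1 was higher and 1 lower of 4 tested, and 3 were not above background (Hoxb1, Egr2 and Pax7). Of 6 markers of notochord and floor plate, Shh, Foxa1, Foxa2, Foxj1 and Noto were not above background, while T was higher, at 0.51 (limma adjusted p = 0.00114), and with 0 control RNAs well above background it was at least 1.29-fold higher. The part of these shifts in the results that follow was not tested, and in RNA of a whole tissue fewer cells of a type and less RNA per cell cannot be told apart.

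The 2 genes with the largest ratios, Tmeff2 and Wfikkn1, each have a close relative in the group, and the probes of each pair are shown because the array has to tell the relatives apart. The probes are 60 bases long and are copied from the array design given in the deposited files. In the first pair, capitals mark the bases that are identical when the probes are aligned without gaps, 24 of the 34 overlapping bases, with no shared run longer than 6 bases:
Tmeff1 probe 1: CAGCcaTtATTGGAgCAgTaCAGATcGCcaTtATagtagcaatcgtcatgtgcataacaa
Tmeff2 probe 1: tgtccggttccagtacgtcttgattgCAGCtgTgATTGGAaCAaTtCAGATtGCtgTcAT

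In the second pair, 31 of 54 overlapping bases are identical, again with no shared run longer than 6 bases. In each probe 1 reading frame is open up to a stop codon at the last 3 bases, which is in capitals:
Wfikkn1 probe 1: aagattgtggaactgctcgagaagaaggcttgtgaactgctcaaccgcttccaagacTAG
Wfikkn2 probe 1: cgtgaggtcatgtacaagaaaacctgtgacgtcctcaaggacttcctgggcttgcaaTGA

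Tmeff2 had the highest ratio of the group, and its relative Tmeff1 had a ratio near 0. Both encode membrane proteins with follistatin domains and an EGF-like domain, and Tmeff1 is known to bind the Nodal co-receptor Cripto. The first Tmeff2 probe, at chr1:51238653-51238712 on the plus strand of mm9, had log2 levels of 10.01, 10.05, 10.11 and 10.17 in the mutant RNAs of replicates 1 to 4 and of 7.47, 7.56, 7.58 and 7.44 in the control RNAs. Every mutant level lay above every control level by over 2 log2 units, with little spread within either genotype. The log2 ratios of mutant over control were 2.54, 2.49, 2.53 and 2.73, a mean of 2.57 ± 0.11 (SD, n = 4 arrays) or 5.95-fold, which ranked 6 from the highest among the 23202 kept probes. Without replicate 2 the fitted log2 ratio was 2.63, and without replicate 4 it was 2.51.

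A second Tmeff2 probe lies further downstream, at chr1:51243808-51243867, and was much dimmer. It stood well above background in all 4 mutant RNAs and in 0 control RNAs, so its control level is only a bound and the mutant was at least 1.64-fold higher. Such a bound sets the mean level of the bright genotype against the lowest signal that counts as well above background. The dim probe's own level is used on an array where it is higher. It holds for the mean of the 4 arrays in the main setting. No allowance is made for spread, so single arrays or other settings can fall below it. Its levels of 7.27, 7.23, 7.60 and 7.60 in the mutant RNAs lay above all control levels, which were 6.22, 6.53, 6.42 and 6.38. The log2 ratios were 1.06, 0.70, 1.18 and 1.22, with a mean of 1.04 ± 0.24 (SD, n = 4 arrays).

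Both Tmeff2 probes pointed the same way on every array, and the gap between their sizes depended on the processing. An offset of 50 was added to every signal after background correction, which pulls the ratios of dim probes toward 0. With an offset of 10 the fitted log2 ratios were 2.88 for the first probe and 1.63 for the second, with an offset of 0 they were 2.98 and 1.94, and with the scanner software's ratios, which differ in both the background and the dye normalization, they were 3.32 and 3.36. Fitted on the per-array ratios of the authors' deposited table they were 3.32 and 2.79. The direction was the same throughout, and which step sets the gap was not tested.

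The 2 probes of Tmeff1 were bright in both genotypes and had no ratio of note. At the first, at chr4:48671744-48671803 on the plus strand, the log2 ratios were -0.05, 0.09, -0.10 and -0.01, with a mean of -0.02 ± 0.08 (SD, n = 4 arrays). At the second, at chr4:48675876-48675935, they were 0.02, 0.08, 0.04 and 0.19, with a mean of 0.09 ± 0.08 (SD, n = 4 arrays). Mutant and control levels overlapped at both probes, and all levels lay between 13.18 and 13.40 at the first and between 13.87 and 14.21 at the second.

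**Figure D1:**
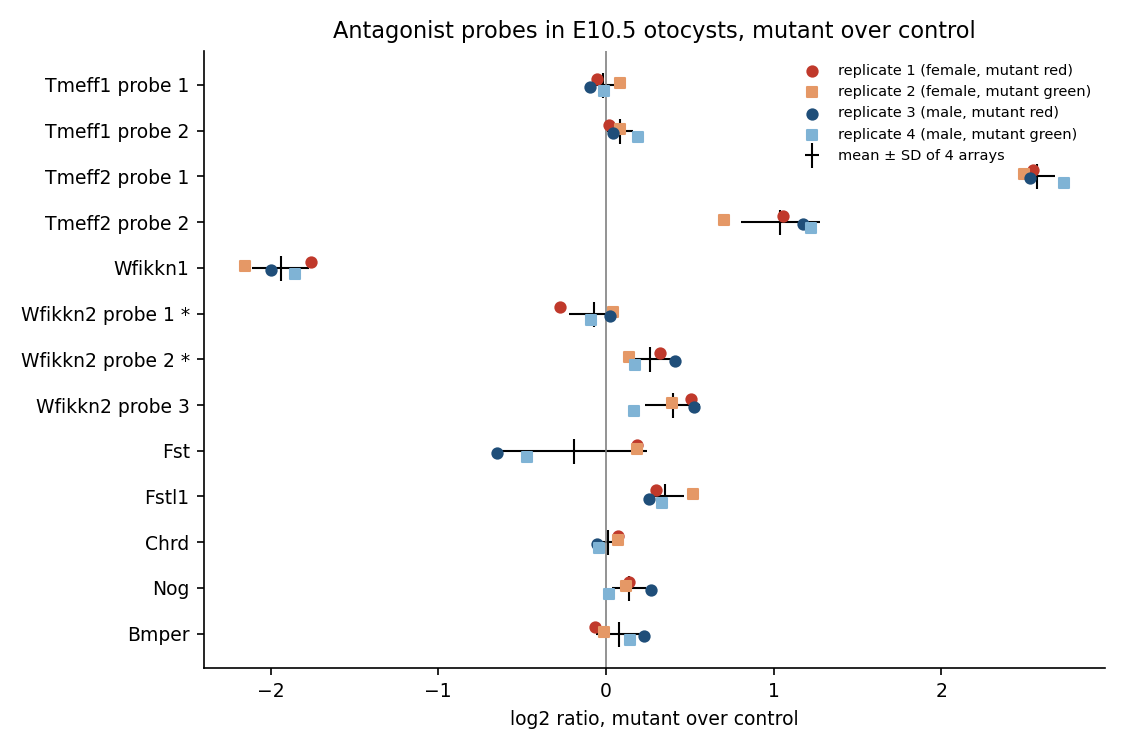
Log2 ratio of mutant over control (horizontal axis) for each of the 13 probes of the 9 antagonist genes. Each point is 1 array, circles with the mutant in red and squares with the mutant in green, females in warm and males in blue colours; the vertical tick and horizontal line are the mean ± SD of 4 arrays, and an asterisk marks the 2 probes not kept for testing. Tmeff2 lies far to the right (means 2.57 and 1.04), Wfikkn1 far to the left (-1.94), and Fst splits by sex.

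Wfikkn1 was the only gene of the group that was clearly lower in the mutant. It encodes a secreted protein with several protease-inhibitor-like domains that binds myostatin and Gdf11. Its probe, at chr17:26014635-26014694 on the minus strand of mm9, had log2 levels of 12.77, 12.53, 12.61 and 12.71 in the mutant RNAs and of 14.53, 14.68, 14.61 and 14.57 in the control RNAs. All mutant levels lay below all control levels, and the gene was still well above background in all 4 mutant RNAs. The log2 ratios were -1.76, -2.15, -2.00 and -1.85, with a mean of -1.94 ± 0.17 (SD, n = 4 arrays). The mutant level was thus 3.84-fold lower, and the ratio ranked 14 from the lowest of the kept probes. The ratio stayed between -2.01 and -1.87 over all alternatives run, leaving out replicate 2 (-1.87) or replicate 4 (-2.01) among them. It lay beside the markers of otic epithelium, whose per-array medians were -0.60 to -0.26, and the part of that shift in it was not tested.

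Wfikkn2, which encodes a protein of the same domain order, was near or below background. Its probe at the stop codon, at chr11:94098912-94098971 on the minus strand, was not well above background in any RNA, with log2 ratios of -0.28, 0.04, 0.03 and -0.09. A second probe, at chr11:94097782-94097841, was well above background in 2 mutant RNAs and in 0 control RNAs, and had log2 ratios of 0.32, 0.14, 0.41 and 0.17. These 2 probes were not kept for testing.

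The third Wfikkn2 probe, at chr11:94097276-94097335, was well above background in 4 mutant RNAs and in 0 control RNAs, so the mutant was at least 1.31-fold higher. Its log2 levels were 7.18, 7.15, 7.33 and 7.12 in the mutant RNAs and 6.67, 6.75, 6.80 and 6.95 in the control RNAs, and the groups did not overlap. The log2 ratios were 0.51, 0.40, 0.52 and 0.16, with a mean of 0.40 ± 0.17 (SD, n = 4 arrays). The fitted value was 0.34 without replicate 2, which is below the bound, and 0.455 without replicate 4. As for Tmeff2, the size depended on the processing: the fitted log2 ratio was 0.59 with an offset of 10, 0.68 with an offset of 0 and 1.37 with the scanner software's ratios. The middle probe moved from 0.26 to 1.24 with the scanner software's ratios, while the probe at the stop codon stayed between -0.16 and 0.00 over all alternatives. Since the probe at the stop codon was not well above background in any RNA, its ratio says nothing for or against the others.

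**Figure D2:**
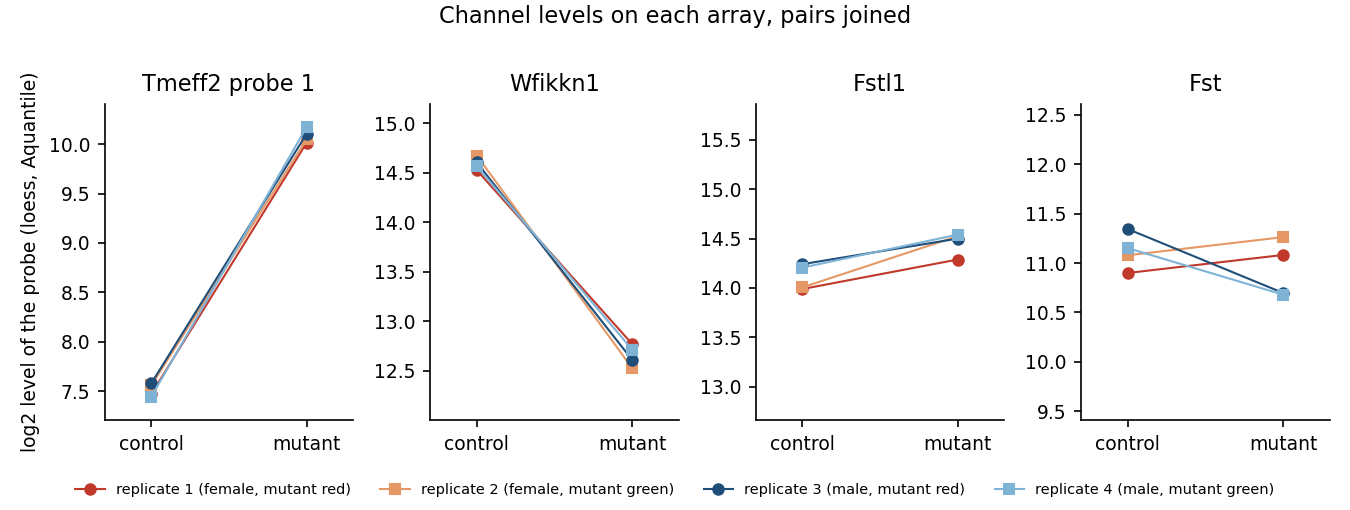
Log2 channel level after loess and Aquantile normalization (vertical axis) in the control and the mutant RNA of each array, joined by a line, for Tmeff2 probe 1, Wfikkn1, Fstl1 and Fst; all panels span the same number of log2 units. The 4 lines rise together for Tmeff2 and fall together for Wfikkn1, rise less for Fstl1, and for Fst rise on both female arrays and fall on both male arrays.

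Fstl1 had a small positive ratio on every array. It encodes a secreted glycoprotein with a follistatin-like domain. At its probe, at chr16:37836492-37836551 on the plus strand, the log2 levels were 14.29, 14.52, 14.50 and 14.54 in the mutant RNAs and 13.99, 14.01, 14.24 and 14.21 in the control RNAs. The lowest mutant level, on replicate 1, lay just above the highest control level, on replicate 3. The log2 ratios were 0.30, 0.52, 0.26 and 0.33, with a mean of 0.35 ± 0.11 (SD, n = 4 arrays) or 1.28-fold, and the fitted value stayed between 0.31 and 0.40 over all alternatives. The per-array medians of the periotic mesenchyme markers were of the same size, 0.34 to 0.48. Those of the dissection stress genes were 0.22 to 0.39 and those of the macrophage markers 0.35 to 0.66. Those of otic epithelium were negative, at -0.60 to -0.26. The part of any of these in the Fstl1 ratio was not tested.

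Fst, which encodes follistatin, the secreted protein that binds and blocks activins, had ratios of opposite sign in the 2 sexes. Its probe lies at chr13:115243565-115243624 on the minus strand. The log2 levels were 11.08, 11.26, 10.70 and 10.68 in the mutant RNAs and 10.90, 11.08, 11.34 and 11.15 in the control RNAs. The male mutant RNAs of replicates 3 and 4 were the 2 lowest, and mutant and control levels overlapped over all arrays. The log2 ratios were 0.18 and 0.18 on the female arrays and -0.65 and -0.47 on the male arrays, with a mean over all of -0.19 ± 0.43 (SD, n = 4 arrays).

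Chrd and Bmper had mean ratios near 0, while the dim probe of Nog had a small positive ratio on every array. Chordin and Noggin bind Bmps and keep them from their receptors. The Chrd probe covers 173 bases of genome, at chr16:20739049-20739221 on the plus strand, and had log2 ratios of 0.07, 0.07, -0.06 and -0.04, with a mean of 0.01 ± 0.07 (SD, n = 4 arrays). Mutant levels of 7.60 to 7.85 overlapped with control levels of 7.64 to 7.78. The Nog probe, at chr11:89162849-89162908 on the minus strand, was dim, well above background in 4 mutant RNAs and in 2 control RNAs. Its levels of 6.97, 6.97, 7.10 and 6.94 in the mutant RNAs lay just above those in the control RNAs, which were 6.84, 6.85, 6.83 and 6.92. The log2 ratios were 0.14, 0.12, 0.27 and 0.02, with a mean of 0.14 ± 0.10 (SD, n = 4 arrays). The size depended on the processing: the fitted value was 0.24 with an offset of 0 and 0.38 with the scanner software's ratios.

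Bmper encodes a chordin-like secreted protein that binds Bmps and can either block or promote their signal. Its probe, at chr9:23289301-23289360 on the plus strand, had log2 ratios of -0.06 and -0.01 on the female arrays and of 0.23 and 0.15 on the male arrays, with a mean of 0.08 ± 0.14 (SD, n = 4 arrays). Mutant levels of 11.20 to 11.66 overlapped with control levels of 11.26 to 11.52.

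Over the group, the 13 ratios had a median of 0.09 and ran from -1.94 to 2.57, against a median of 0.00 over all probes. Of the 11 kept probes, 5 passed limma's adjusted p of 0.05, where 22.1% of all kept probes did. Of these, 4 had a higher value, both of Tmeff2, 1 of Wfikkn2 and that of Fstl1, where 12.4% of all kept probes did. The probe of Wfikkn1 passed with a lower value, where 9.7% of all kept probes did. Mutant and control levels did not overlap for 5 kept probes with the mutant above and 1 with the mutant below, against 12.3% and 10.1% of all kept probes. Since the genes were chosen on these ratios, nothing is read from these counts. Where a probe had to be well above background in all 8 RNAs, 2 of the higher calls were left, because the dim probes of Tmeff2 and Wfikkn2 were no longer tested.

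**Figure D3:**
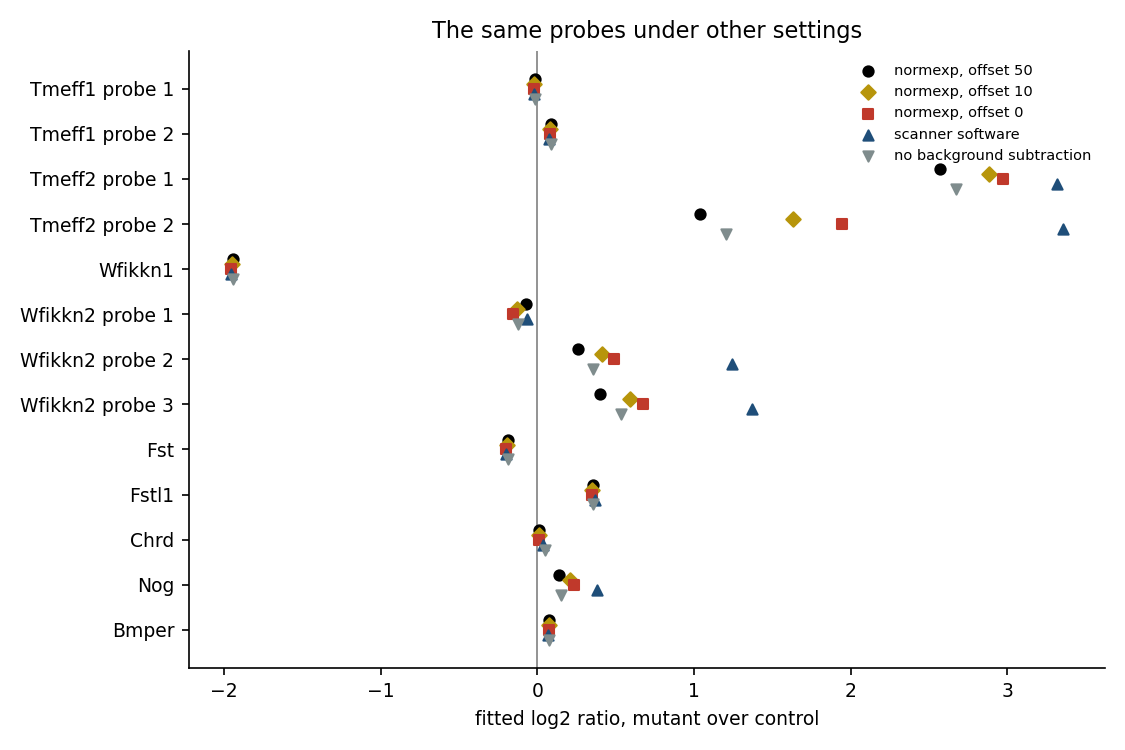
Fitted log2 ratio of mutant over control (horizontal axis) for the 13 probes under 5 settings, one marker shape each: 3 normexp offsets, the scanner software's ratios, and no background subtraction. The bright probes of Tmeff1, Wfikkn1, Fst, Fstl1 and Bmper keep their place, while the dim probes of Tmeff2 (probe 2) and Wfikkn2 (probe 3) move to the right, from 1.04 and 0.40 with an offset of 50 to 1.94 and 0.68 with an offset of 0, and further to 3.36 and 1.37 with the scanner software's ratios.

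Whether the mutant over control ratio differed between the sexes was tested for every kept probe, with 2 arrays per sex. This comparison had no part in the choice of the genes. For Fst the male ratio minus the female ratio was -0.74 on the log2 scale (limma SE 0.10, 95% interval -0.97 to -0.52; female mean 0.18, male mean -0.56). Both female arrays were positive and both male arrays were negative. With an unadjusted p of 8.96e-05 it ranked 30 of 23189 probes, and limma's adjusted p of 0.0679 (Benjamini-Hochberg) did not pass 0.05, where 0.0172% of all probes tested did. The difference stayed between -0.78 and -0.57 over 6 alternatives, with limma adjusted p from 0.0117 to 0.227. In a fit with no dye term it was -0.74 without replicate 2 (limma adjusted p = 0.0276) and -0.83 without replicate 4 (limma adjusted p = 0.0809), so the side of the threshold changed with the arrays and settings while the sign did not. Each of these 2 fits leaves 1 array in a sex, whose spread is then assumed to be that of the other sex.

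In the other 10 kept probes the sexes did not differ past the threshold. For the first Tmeff2 probe the male minus female difference was 0.11 (95% interval -0.13 to 0.35; limma adjusted p = 0.63), and for Wfikkn1 it was 0.03 (95% interval -0.28 to 0.34; limma adjusted p = 0.936). Both intervals are narrow beside the ratios themselves. The second Tmeff2 probe had 0.32 (95% interval 0.05 to 0.60; limma adjusted p = 0.246) and Bmper had 0.22 (95% interval 0.01 to 0.44; limma adjusted p = 0.29), which like Fst had an unadjusted p under 0.05. In all, 0 of the 11 probes passed limma's adjusted p of 0.05 and 3 had an unadjusted p under 0.05, against 3853 of 23189 over the array. That share over the array is larger than 0.05. An interval of 95% that excludes 0 is therefore common here, and the reason was not tested.

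**Figure D4:**
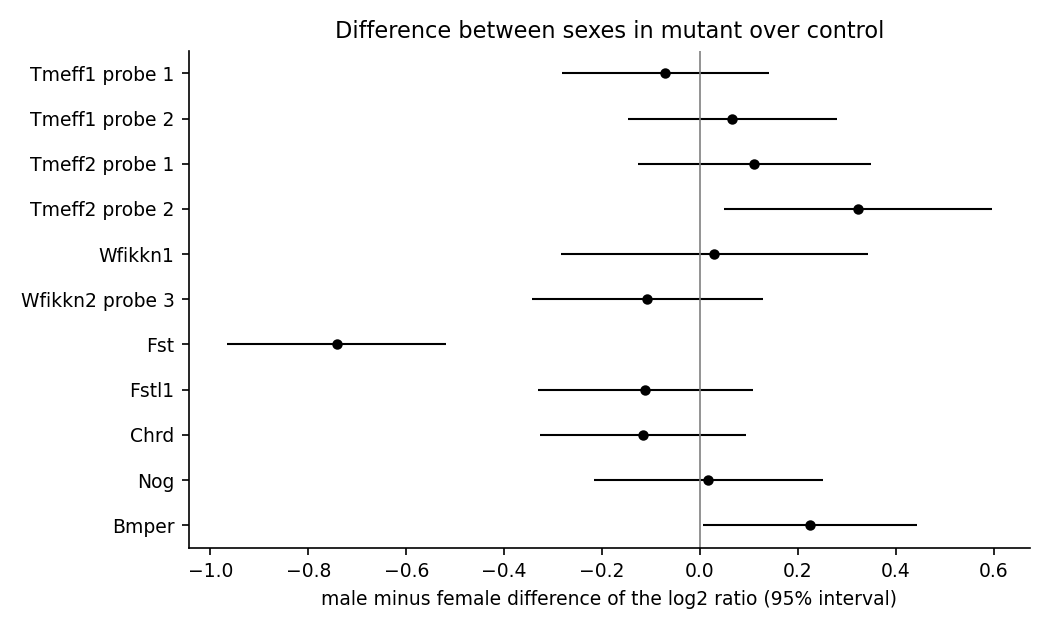
Male minus female difference of the log2 ratio of mutant over control (horizontal axis) for the 11 kept probes, with the 95% interval from limma as a line. The interval of Fst lies far below 0 (-0.97 to -0.52), those of Tmeff2 probe 2 and Bmper lie just above 0, and the other 8 include 0. Over the array 3853 of 23189 probes had an unadjusted p under 0.05, so an interval that excludes 0 is common.

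The genes whose 4 array ratios lay nearest to those of Tmeff2 and Wfikkn1 were sought among 13015 named genes measured above background in every RNA, by the root mean square difference over the 4 log2 ratios. For the first Tmeff2 probe the nearest were Papss2 (difference 0.27, mean log2 ratio 2.39), an enzyme that makes the sulfate donor for proteoglycans, and Napsa (0.30, mean 2.85), an aspartic protease, and 0 genes lay within 0.25. For Wfikkn1 they were Sstr1 (0.14, mean -1.83), a somatostatin receptor, Oc90 (0.15, mean -1.83), the main matrix protein of otoconia, and Tnni1 (0.20, mean -2.08), a slow skeletal troponin, and 5 genes lay within 0.25. The measure takes in the mean of the ratios as well as their order over the arrays.

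Promoter sequence was at hand from RefSeq (GRCm38.p6) for 7 of the 9 genes, Nog and Fst excepted, from 250 bases before to 50 after the start. The promoter of Wfikkn1 was poorer in G and C, at 46.0%, and held 2 CpG dinucleotides, and that of Tmeff2 had 67.7% and 24. The median over all promoters was 52.7% and 7 CpG. The core of the T-box binding site, GTGTGA on either strand, was found in 0 of the 7 windows and in 14.5% of all 32851 promoters, and the longer GGTGTGA, which contains it, in 0 of 7 and in 3.98%. No match says only that these letters are not in these windows.

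Other genes of the pathway were read at 1 probe per gene, the brightest kept one, and tested with limma over all genes. Of 84 listed genes 69 were tested, 20 were higher in the mutant and 21 lower, where 13.5% of 18423 genes were higher and 10.2% lower. Without replicate 1 the higher count was 13, and without replicate 3 it was also 13. The lists were drawn up with earlier results of these data known.

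Among 23 other antagonists, 13 were tested, 5 were higher and 4 lower, with a median log2 ratio of -0.06 against 0.00 over all genes. Smoc1, a matrix protein that limits Bmp signals, was higher by 1.23 ± 0.13 (SD, n = 4 arrays; limma adjusted p = 2.81e-05), and its relative Smoc2 by 1.04 ± 0.25 (limma adjusted p = 0.000494). Nbl1, a secreted Bmp-binding protein of the Dan family, was higher by 0.45 ± 0.12 (limma adjusted p = 0.00154). Sostdc1, a secreted antagonist of Bmps that also affects Wnt signals, had a log2 ratio of -0.42 ± 0.16 (limma adjusted p = 0.00119). Crim1, a membrane protein that binds Bmps, was not well above background in the mutant on any array and was at least 1.3-fold lower (limma adjusted p = 0.00544). Without replicate 3 its fitted log2 ratio was -0.32, smaller in size than this bound. Inha, the chain that turns activin subunits into inhibins, had -0.29 ± 0.14 (limma adjusted p = 0.0146), a call lost without replicate 3 (-0.25, limma adjusted p = 0.105). Grem1, Cer1, Sost, Chrdl2, Fstl4, Fstl5, Lefty1, Vwc2, Vwc2l and Bambi were not above background.

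The proteases that cut antagonists had small positive ratios. Of 4 listed, 3 were tested and 2 were higher, with a median of 0.19. Bmp1, a metalloprotease that cleaves Chordin, was higher by 0.19 ± 0.10 (SD, n = 4 arrays; limma adjusted p = 0.0393), and Tll1, its relative, which was not well above background in the control on any array, was at least 1.18-fold higher (limma adjusted p = 0.0375). Neither call held under every setting. That of Bmp1 was lost with the scanner software's ratios (limma adjusted p = 0.0733) and without replicate 1, 2 or 3 (0.178, 0.126 and 0.159). It was also lost with the deposited value table (limma adjusted p = 0.0727), median centring (0.168), no filter (0.0554), and offsets of 0 (0.0606) and 10 (0.0551). The other kept probes of Bmp1 had 0.12 and 0.04, and the mean of its probes was 0.12 (limma adjusted p = 0.187). The call of Tll1 was lost without background subtraction (limma adjusted p = 0.0588) and without replicate 1, 3 or 4 (0.167, 0.114 and 0.112). Its fitted log2 ratio was 0.22 without background subtraction and 0.17 without replicate 4, both below the bound given.

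The ligands that these proteins bind changed in both directions. Of 23 listed, 19 were tested, 5 were higher and 7 lower, with a median of -0.07. Bmp2 was higher by 0.72 ± 0.10 (SD, n = 4 arrays; limma adjusted p = 0.000225) and Bmp6 by 0.61 ± 0.07 (limma adjusted p = 0.000267; 0.96 with the scanner software's ratios). Inhba, the subunit of activin A, was not well above background in the control on any array and was at least 1.48-fold higher (limma adjusted p = 0.00133). Gdf6, a Bmp-like ligand, was lower at -3.10 ± 0.24 (limma adjusted p = 2.43e-06), was measured above background in 1 of 4 mutant RNAs, and had -5.19 with the scanner software's ratios. Gdf1, a partner of Nodal whose transcript is shared with another gene, was lower at -0.68 ± 0.11 (limma adjusted p = 0.000272), and Bmp8b had -0.57 ± 0.05 (limma adjusted p = 0.000401).

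Of the ligands that Wfikkn proteins bind, which are named here after their values were seen, Mstn (myostatin) was higher by 0.65 ± 0.26 (SD, n = 4 arrays; limma adjusted p = 0.00401). Gdf11 had -0.07 ± 0.05 (limma adjusted p = 0.393). Wfikkn1, at -1.94, thus stood beside a higher Mstn and a Gdf11 that did not pass the test.

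Among the 17 receptors and co-receptors, all tested, 6 were higher and 2 lower, with a median of 0.09. Tgfbr2, the type II receptor for TGF-beta, was higher by 0.84 ± 0.14 (SD, n = 4 arrays; limma adjusted p = 0.000141), but its other kept probe had 0.15, and the mean of the probes was 0.50 (limma adjusted p = 0.000695). Acvrl1, a type I receptor best known in endothelium, was higher by 0.48 ± 0.09 (limma adjusted p = 0.000976), beside endothelial markers with per-array medians of 0.64 to 0.70, whose part in it was not tested. Tgfbr3, the co-receptor betaglycan, was higher by 0.47 ± 0.12 (limma adjusted p = 0.00201). Bmpr2, the type II receptor for Bmps, was lower at -0.86 ± 0.28 (limma adjusted p = 0.00116), and Acvr1c, a type I receptor for activins and Nodal, was not well above background in the mutant on any array and was at least 1.26-fold lower (limma adjusted p = 0.00216).

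**Figure D5:**
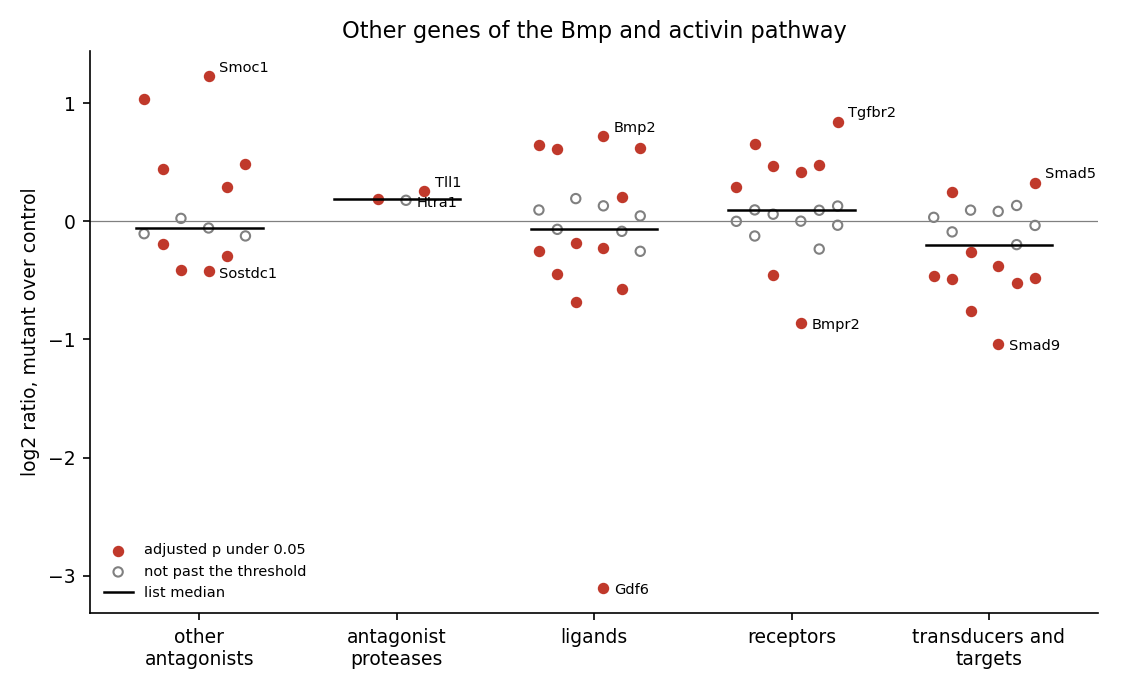
Log2 ratio of mutant over control (vertical axis) of the 69 tested genes of 5 lists, 1 probe per gene. Filled points passed limma's adjusted p of 0.05, open points did not, bars are list medians, and the named points are the highest and the lowest of a list. Other antagonists and ligands spread to both sides of 0, and most filled points among transducers and targets lie below it.

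Of the 17 transducers and target genes, all tested, 8 were lower, 2 were higher and 7 did not pass the test, with a median of -0.20. Smad9, a transducer of Bmp signals, was lower at -1.04 ± 0.16 (SD, n = 4 arrays; limma adjusted p = 0.000144; -1.59 with the scanner software's ratios). Id4 and Id1, targets of Bmp signals that block bHLH factors, were lower at -0.76 ± 0.11 (limma adjusted p = 0.000278) and -0.49 ± 0.14 (limma adjusted p = 0.000785). Smad5, another Bmp transducer, was higher by 0.33 ± 0.03 (limma adjusted p = 0.0037). Smad2, which carries activin signals, was higher by 0.24 ± 0.13 (limma adjusted p = 0.0277). This call was lost with the scanner software's ratios (limma adjusted p = 0.0643), the deposited value table (0.0636) and median centring (0.0658). It was also lost without replicate 1, 3 or 4 (limma adjusted p = 0.0678, 0.176 and 0.0879).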

How the data were processed

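Total RNA of E10.5 otocysts was amplified, labelled with 2 dyes and hybridised, 1 mutant and 1 control RNA per array, per the labels' protocols. Spot intensities and local background intensities came from the scanner program, per the file headers, which the submitters' processing notes give as Agilent Feature Extraction, version 10.7.3.1. The deposited files also hold log10 ratios of red over green, background-subtracted and dye-normalized by the scanner software, per the file headers. The authors' deposited value table holds fold ratios with a sign (a score with no values between -1 and 1); turned to log2 by the dye labels, they lay within 0.001 of the scanner ratios for 90.9% to 93.3% of 39429 probes, with a column median of 1. The reason for the remaining differences was not given in the sources used here.

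Signals were corrected with normexp (offset 50) and normalized within arrays by loess (span 0.3), with no weight on control spots, using limma 3.58.1 and R 4.3.3. Spots marked non-uniform, 21 to 32 an array, were dropped, and 0 spots were saturated. The genotype was coded by dye orientation beside a dye term, in limma's lmFit and eBayes (residual degrees of freedom 2, prior 4.84), with Benjamini-Hochberg adjustment and a threshold of 0.05. The sexes were compared by an interaction term (prior 6.25, residual 1). Mean ± SD is over the turned ratios of 4 arrays. Levels are channel values after loess and Aquantile, and levels of different probes are not compared. Bounds ("at least N-fold") set the bright genotype's mean against the higher of the lowest well-above-background signal and the dim probe's own. They cover the mean of 4 arrays in the main setting, with no allowance for spread. Over 399 probes printed at least 10 times, the within-array SD was 0.0428; the median SD between arrays of kept probes was 0.118. All arrays lay on 1 slide. Coordinates are those of the files (mm9); gene symbols were updated by a RefSeq table of GRCm38.p6 (accession for 26412 probes, symbol for 3854, synonym for 735, the file's name for 8428).

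The genes and lists were chosen with earlier results of these data known. Named were every gene of the group, Tbx2 and Tbx3, up to 3 higher and 3 lower genes per pathway list with the smallest adjusted p and 1 sign on all arrays, and the 3 nearest genes of each antagonist with a log2 ratio of at least 1 in size at a probe well above background throughout. Of the genes that met this rule, 1 is not reported here. The steps were tested on simulated data: of 100 probes changed 1.5-fold and 100 changed 2-fold in the genotype comparison on 23202 probes, 100 and 99 were recovered, with 5 unchanged probes called; for the sex difference it was 100 and 99, with 14. The simulated noise had the same spread for every probe, smaller than the median SD between arrays of kept probes (0.118). These counts therefore do not say how often a change of that size is found on the real arrays. Figures were drawn with matplotlib 3.10.9.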

Additional observations from a re-analysis of the deposited data

Results flagged for a closer look

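Among 39 sets of 4 values examined (the ratio, the mutant level and the control level of each of the 13 probes), 1 held a value far from the other 3. The mutant log2 level of Fstl1 on replicate 1 was 14.29, while the other 3 mutant levels lay between 14.50 and 14.54, and the gap took 0.84 of the range. Chance alone flags about 1 in 20 such sets. The control level on that array was also the lowest, at 13.99, and the ratio on that array, 0.30, lay inside the range of the others.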

How the results depend on the processing

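Of 167 values of the 13 ratios under other settings, 149 moved by less than 1 SD, 18 moved by more and 0 changed the sign of a called ratio; the larger moves were in Tmeff2, the dim probes of Wfikkn2, and Nog, under other offsets, the scanner software's ratios or the deposited value table. Of 1168 pathway gene values, 1091 stayed on their side of the threshold, some uncalled values near 0 with a change of sign, 61 lost a call, 16 gained one, and 0 changed sign with a call. All 26 channel levels moved by less than 1 SD under quantile normalization. The offsets of 0 and 10 and the sex fits without an array were added after seeing the data.

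The Fst difference between sexes passed the threshold with median centring (-0.57, limma adjusted p = 0.0117) and without background subtraction (-0.74, adjusted p = 0.04), and with no dye term it lay between -0.83 and -0.65 when 1 array was left out (adjusted p 0.0276 to 0.0809), with the lone array of a sex assumed to vary like the other sex. The number of probes with a sex difference, 4, became 685 with median centring, 53 without background subtraction, and 0 with an offset of 0 (3541 with an unadjusted p under 0.05) or with the scanner software's ratios (3703), and 12, 61, 69 or 129 with no dye term and 1 array left out. Leaving out 1 array gave 13 to 20 higher pathway genes and 16 to 20 lower, and 1975 to 2821 higher and 1342 (without replicate 3) to 2172 lower probes over the array, against 2872 and 2249 with all arrays. The causes were not tested. With the dye term, a sex fit on 3 arrays has no residual degrees of freedom.

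Each array holds its own mutant and control RNA, so the ratios are already paired values and no further replicate block was fitted. The number of arrays and, for Nog, Wfikkn2 and the second Tmeff2 probe, a signal close to background limit the sizes given. The size for the first Tmeff2 probe also depended on the processing, at 2.57 in the main setting and 3.32 with the scanner software's ratios.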
